A study of Mus musculus with 34 samples.

Results

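Loss of the pocket protein p130 (gene Rbl2) from mouse fetal liver that already lacked Rb1 and p107 (gene Rbl1) was examined by setting 6 arrays of Rb1;p107;p130 TKO liver, the triple knockout, against 5 arrays of Rb1;p107 DKO liver. These are 11 of the 34 arrays of the series, chosen by the genotype in their labels. The question is what the last family member does once the other two are gone. Each array measured total RNA of an untreated, unfractionated and freshly isolated liver, labelled E14.5, on a one-colour Affymetrix platform. The other genotypes were wild type (2 arrays), p107 KO (1), p130 KO (3), p107;p130 DKO (6), Rb1 KO (2) and Rb1;p130 DKO (9). Both groups compared therefore share the loss of Rb1 and of p107 and differ by label in p130 alone. The labels name neither the alleles nor a Cre driver, give no littermate or strain information, and do not tell if each array had its own fetus. The p-values therefore cover only array-to-array spread, which may be technical in part. Of 18193 genes on the array, 12719 passed a filter on low signal and were tested, each by its brightest probe set. Values are linear MAS5 signals, and differences are triple knockout minus Rb1;p107 DKO on the log2(signal + 32) scale, which understates the change of dim genes.

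Rb1, p107 and p130 bind E2F transcription factors and hold back genes that cells need for DNA replication and division. p130 is best known from quiescent cells, where it joins E2F4 or E2F5, a DP partner and the MuvB core in the DREAM complex, which sits on E2F sites of S-phase genes and on CHR elements of mitotic genes and keeps them silent. p107 can take its place in that complex. The fetal liver at this age is chiefly a blood-forming organ in which red cell precursors divide and mature among hepatocytes and macrophages. Rb1 is needed there for red cell precursors to complete their maturation.

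The elements through which p130 is known to act lie in the promoters of genes that follow, and 4 of them are shown because their genes were the list members with the largest test statistic that carried the element. The motifs searched on both strands of the 250 bases before each start were TTTCGCGC or TTTGGCGC for E2F and TTTGAA for the CHR element. Capitals mark the match, and the sequences are those of RefSeq on GRCm38.p6, plus strand, which is the coding strand of all 4 genes.
Orc1, chr4:108579387-108579453: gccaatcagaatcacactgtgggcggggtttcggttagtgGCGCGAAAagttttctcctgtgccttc
Mcm5, chr8:75109316-75109403: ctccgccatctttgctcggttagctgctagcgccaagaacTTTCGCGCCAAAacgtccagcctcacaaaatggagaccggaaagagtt
Ube2c, chr2:164769860-164769928: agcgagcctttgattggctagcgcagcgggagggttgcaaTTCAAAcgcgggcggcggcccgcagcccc
Kif11, chr19:37376323-37376381: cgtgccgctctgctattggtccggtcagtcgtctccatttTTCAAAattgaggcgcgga
The Orc1 match ends 19 bases before the start, and the Mcm5 capitals hold 2 overlapping E2F matches, 1 on each strand. The CHR matches of Ube2c and Kif11 lie 23 and 13 bases before the start, on the minus strand. A match is a string of letters and was not tested as a binding site.

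The livers had the cells their label promises, and the arrays also fell into groups that were found without genotype but were unevenly spread over it. Afp and Alb, the main secreted proteins of fetal hepatocytes, gave signals of 42388 ± 4549 and 40853 ± 4484 (SD) in the Rb1;p107 DKO and 39557 ± 3944 and 36346 ± 3256 in the triple knockout. Slc4a1, the red cell anion exchanger band 3, gave 41657 ± 6154 (SD, n = 5) and 35592 ± 5617 (n = 6), so hepatocyte and red cell RNA were plentiful in both groups. Over the 11 arrays the median signal ran from 84.5 to 101, 46.8% to 50.2% of probe sets had a signal of at least 100, and pairs of arrays correlated between 0.957 and 0.983 (Pearson, log2 scale, across genes). When the 34 arrays were sorted into 3 groups by differences between probe sets of the same gene, without genotype, the Rb1;p107 DKO arrays fell 1, 4 and 0 into array groups 1, 2 and 3, and the triple knockout arrays 1, 2 and 3. Besides the 3 triple knockout arrays, array group 3 held 4 of Rb1;p130 DKO, 1 of p130 KO and 1 of p107;p130 DKO. Every array in it thus lacks p130, and no genotype of the series that keeps p130 has an array there. The first principal component of the 11 arrays held 29.7% of the variance, of which 96.6% lay between array groups and 24.7% between genotypes. Since array groups 1 and 2 hold both genotypes, array group could be fitted as a block or compared within, and such values are given beside the results of this comparison. Xist was high on 3 of 5 and 4 of 6 arrays and Y-linked genes on the others.

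The transcript of the targeted gene was read first. Rbl2 signals in the Rb1;p107 DKO were 398, 279, 474, 423 and 246, and in the triple knockout they ran from 127 through a median of 184 to 265. The lowest control array lay inside the triple knockout range and the other 4 above it. The log2 difference was -0.84 ± 0.19 (SE), with an adjusted p of 0.572 in limma over all genes, so Rbl2 was not called. With array group as a block Rbl2 fell by 1.03 on the log2 scale and passed, at an adjusted p of 0.0325. The second Rbl2 probe set gave 123 to 228 in the Rb1;p107 DKO and 35.5 to 114 in the triple knockout, and these groups did not overlap. Its log2 difference was -1.04, with an exact two-sided permutation p of 0.00216. That is the smallest that 462 splits of 5 and 6 arrays can give, and the brighter probe set gave 0.00649 in this permutation. Array group was not taken into account in either. The 2 wild-type arrays averaged 345 and 180 on these probe sets, so signal remained in the triple knockout, and where the probes lie relative to the deleted part is not given in the sources used here.

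The 2 genes that both groups lack were at knockout level in both. Rb1 gave 937 ± 112 (SD, n = 5) and 1143 ± 277 (n = 6) against 7435 ± 2334 in the 2 wild-type arrays, and Rbl1 gave 69.5 ± 18.4 and 87.6 ± 29.6 against 1407 ± 266. Their differences between the groups compared were 0.25 ± 0.18 and 0.22 ± 0.21 log2, and neither was called. Over array groups 1 and 2 alone the Rb1 difference was -0.05, so its direction is not settled.

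**Figure D1:**
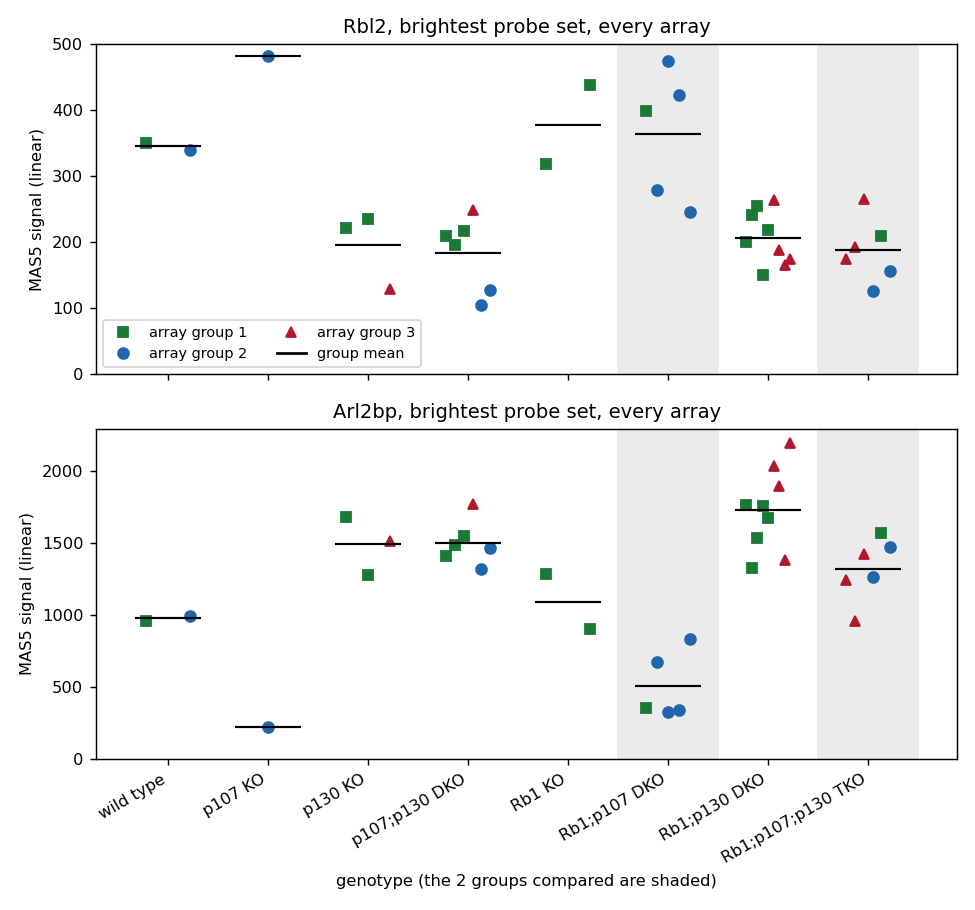
Linear MAS5 signal (vertical axis) of Rbl2 and Arl2bp, by brightest probe set, on every array of the 8 genotypes (horizontal axis), with array groups as symbols and black lines at the group means. The triple knockout Rbl2 signals reach 265 at most, and the Arl2bp signals of the 5 Rb1;p107 DKO arrays, up to 838, all lie under the lowest triple knockout array at 959.

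Calls were few across the whole transcriptome. One gene of 12719 (0.00786%) was called at an adjusted p under 0.05, Arl2bp, which was higher without p130, and no gene was called lower (0%). At an unadjusted p under 0.05 limma had 955 genes (7.51%), of which 701 were higher (5.51%) and 254 lower (2%). With array group as a block that number was 411 (3.23%), 235 higher (1.85%) and 176 lower (1.38%), and 2 genes were called (0.0157%), Arl2bp and Rbl2. Array group therefore moved with a large part of the unadjusted differences, and its share in them cannot be told apart from genotype for the 3 triple knockout arrays of array group 3, which no Rb1;p107 DKO array joined. Groups that did not overlap were found in 33 genes with all triple knockout arrays higher (0.259%) and in 22 with all lower (0.173%).

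The precision shows how far this near absence of calls reaches. The 95% interval of a difference had a median half-width of 0.37 log2, and 0.29 for the 6256 genes with a mean signal of at least 500. For 7521 genes (59.1%) the interval lay within a 1.5-fold change in either direction, and for 8527 (67%) it did so with array group as a block. The median difference of all genes was 0.03, and 0.00 with the block. Without the block 7228 of the 12719 differences were above 0 and 5491 below.

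**Figure D2:**
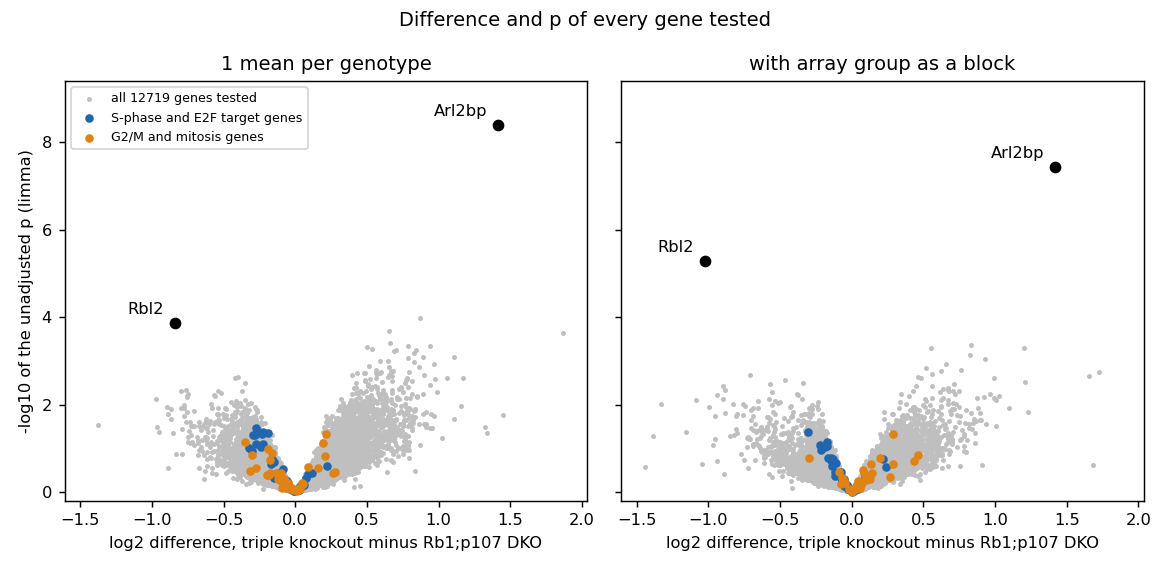
Each grey point is 1 of the 12719 genes, with its log2 difference (horizontal axis, triple knockout minus Rb1;p107 DKO) and the -log10 of its unadjusted limma p (vertical axis), from the fit without (left) and with (right) array group as a block. Arl2bp stands alone at the top on the left at a difference of 1.41, Rbl2 joins it on the right at -1.03, and S-phase (blue) and mitotic (orange) genes lie in the lower centre of both panels.

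Arl2bp encodes a partner of the small GTPase ARL2 that is found at centrosomes, cilia and mitochondria. Its signal in the Rb1;p107 DKO was 356, 672, 330, 343 and 838, and in the triple knockout it ran from 959 through a median of 1345 to 1575. All 6 triple knockout arrays were above all 5 controls, of which arrays 1, 3 and 4 were at 330 to 356 and the others at 672 and 838. The rise was 1.41 ± 0.18 log2 (95% interval 1.05 to 1.78), or 2.66-fold, at an adjusted limma p of 5.18e-05. With array group as a block it was 1.42 (adjusted p = 4.79e-04), within array group 2 it was 1.38 (2 arrays against 4), and within array group 1 it was 2.05 (1 against 1). A fit to only the 11 arrays compared, with its own estimate of the spread, kept the size but lost the call (adjusted p = 0.128). The second Arl2bp probe set also lay higher, by 1.17 log2 with an exact permutation p of 0.0173. On it 4 of 6 triple knockout arrays were above all controls. Arl2bp was picked on these same arrays, and the permutation took no account of array group. That p is therefore no separate support.

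The levels of Arl2bp in the other genotypes put this rise in order. Wild-type livers gave 963 and 993 and Rb1 KO livers 1286 and 903, and the lowest triple knockout array, at 959, lay under both wild-type arrays. The lowest signals of the series were the single p107 KO array at 222 and the 5 Rb1;p107 DKO arrays, which all lack p107 and keep p130. The 3 other genotypes that lack p130 were higher than wild type on every array of this probe set, with 1279 to 1683 in the p130 KO, 1324 to 1770 in the p107;p130 DKO and 1325 to 2197 in the Rb1;p130 DKO. The order by mean was thus p107 KO, Rb1;p107 DKO (508), wild type (978), Rb1 KO (1094), triple knockout (1324), p130 KO (1492), p107;p130 DKO (1502) and Rb1;p130 DKO (1730). Signals of each neighbouring pair from wild type upwards overlapped. On the second probe set the lowest p130 KO array (394) and the lowest triple knockout array (347) were under both wild-type arrays (430 and 777).

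p130 loss was tested on 2 other backgrounds that share no array with the first comparison. Array groups were uneven there too, and the values given are without the block. The Rb1;p130 DKO arrays fell 5, 0 and 4 into array groups 1, 2 and 3, and the Rb1 KO arrays 2, 0 and 0. The p130 KO arrays fell 2, 0 and 1, and the wild-type arrays 1, 1 and 0. With Rb1 absent and p107 present (Rb1;p130 DKO minus Rb1 KO) Arl2bp differed by 0.65 ± 0.23 log2 at an unadjusted p of 0.0081, and with all other pocket proteins present (p130 KO minus wild type) by 0.59 ± 0.27 at 0.037. Neither was called, with an adjusted limma p of 1.00 for both. The estimated rise of Arl2bp with both partners gone exceeded the estimates on those backgrounds by 0.76 and 0.83 log2. These differences had unadjusted limma p-values of 0.0133 and 0.0152 and adjusted ones of 0.940 and 1.00, so they did not pass over all genes. Arl2bp was singled out by the first comparison, which enters both differences. The unadjusted p-values are therefore not a fair test, and whether the effect depends on the background is not settled. Rbl2 differed by -0.78 and -0.76 log2 there, close to the -0.84 of the first comparison. No gene was called in either of these comparisons (0%), with 292 (2.3%) and 261 (2.05%) at an unadjusted p under 0.05 in limma. The difference of effects likewise had 0 calls for both, with 465 (3.66%) and 193 (1.52%) at that p.

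Rbl2 and Arl2bp lie on the same chromosome, 8, and Arl2bp is the 24th tested gene after Rbl2 in gene order. The 50 tested genes on each side of Rbl2 were therefore listed. Among those 100 neighbours Arl2bp was the 1 gene called. At an unadjusted p under 0.05 in limma 6 (Arl2bp included) were higher and 3 lower, where 5.51% and 2% of all genes were. Of the neighbours' differences 53 were above and 47 below 0, with a median of 0.03, against 7228 and 5491 over all genes. The next largest difference in size was 0.77, with an interval from 0.19 to 1.35.

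**Figure D3:**
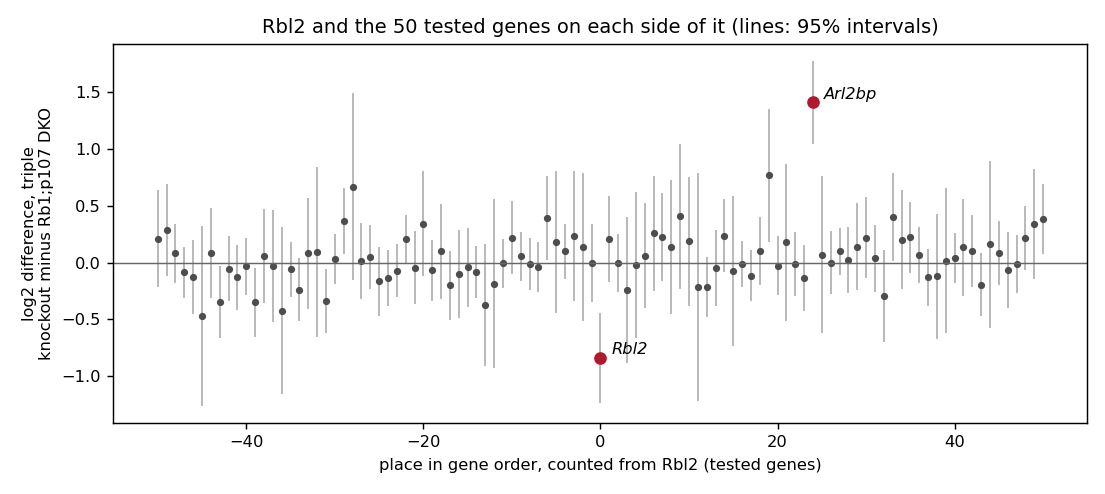
Log2 difference with its 95% interval (vertical axis) for Rbl2 and the 50 tested genes on each side of it, by place in gene order along chromosome 8 (horizontal axis). Arl2bp at place 24 with 1.41 and Rbl2 at place 0 with -0.84 are in red, and every other gene lies at most 0.77 from 0.

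After Arl2bp the rule for named genes gave 9 further genes, those with the smallest p among higher differences and a mean log2 value of at least 8, none of them called. Mta2, a subunit of the NuRD deacetylase complex, gave 1512, 1193, 1310, 1383 and 1179 in the Rb1;p107 DKO and 1568 to 2568 with a median of 2094 in the triple knockout. Its groups did not overlap, and the difference was 0.66 ± 0.16 log2 (adjusted p = 0.572), or 0.43 with the array group block. Igfbp3, which binds insulin-like growth factors in serum and tissue, gave 820, 839, 724, 773 and 678 against 980 to 1762 with a median of 1246. It did not overlap either, at 0.70 ± 0.18 log2 (adjusted p = 0.587) and 0.56 with the block. Ext1, a polymerase of heparan sulfate chains, was the third gene of this kind, at 511, 505, 458, 442 and 470 against 613 to 924 with a median of 648, a difference of 0.50 ± 0.13 log2 (adjusted p = 0.587) and 0.34 with the block.

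The other 6 overlapped between the groups. Nacad differed by 1.87 ± 0.45 log2, with 96.5 to 686 on the Rb1;p107 DKO arrays against 655 to 1535. Wdr91, a regulator of endosome maturation, differed by 0.66, and Usp37, a deubiquitinase that acts on cyclin A, by 0.69. Slc25a22, a mitochondrial glutamate carrier, was at 0.79, Arid5b, a DNA-binding partner of a histone demethylase, at 0.65 and Sinhcaf, a member of the Sin3 histone deacetylase complex, at 0.86. The block took these to 1.66, 0.45, 0.39, 0.56, 0.36 and 0.33. In Usp37 and Sinhcaf the triple knockout arrays of array group 3 ran from 832 to 900 and from 752 to 1049, and array 4, of array group 2, lay within the controls at 388 and 351.

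On the lower side, after Rbl2, the rule gave 9 genes, again with none called. D16Ertd472e gave 551, 629, 632, 505 and 557 in the Rb1;p107 DKO and 392 to 484 with a median of 439 in the triple knockout, and did not overlap (-0.35 ± 0.11 log2, block -0.30). Opn3, an opsin expressed outside the eye, gave 321, 306, 348, 291 and 348 against 156 to 263 with a median of 219, and did not overlap (-0.54 ± 0.18, block -0.53). Both differences were about as large with the block, and both had an adjusted p of 0.658.

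The remaining 7 genes overlapped between groups. Steap3, the ferrireductase that red cell precursors use to take up iron, differed by -0.57 ± 0.19 log2, from 877 ± 115 (SD, n = 5) to 593 ± 165 (n = 6). The 3 triple knockout arrays of array group 3 gave 435 to 494 and the other 3 gave 583 to 848, and the block value was -0.42. Cyp2c70, a liver enzyme of bile acid hydroxylation, was at -0.76, Tmed4, a cargo receptor of the early secretory pathway, at -0.56 and Slc16a10, an aromatic amino acid transporter, at -0.52. Hax1, a mitochondrial protein needed by neutrophils, was at -0.42, Abhd5, an activator of triglyceride lipase, at -0.40 and Eftud2, a GTPase of the spliceosome, at -0.37. The block brought Slc16a10 to -0.20 and Hax1 to -0.20, and Tmed4 stayed at -0.55.

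**Figure D4:**
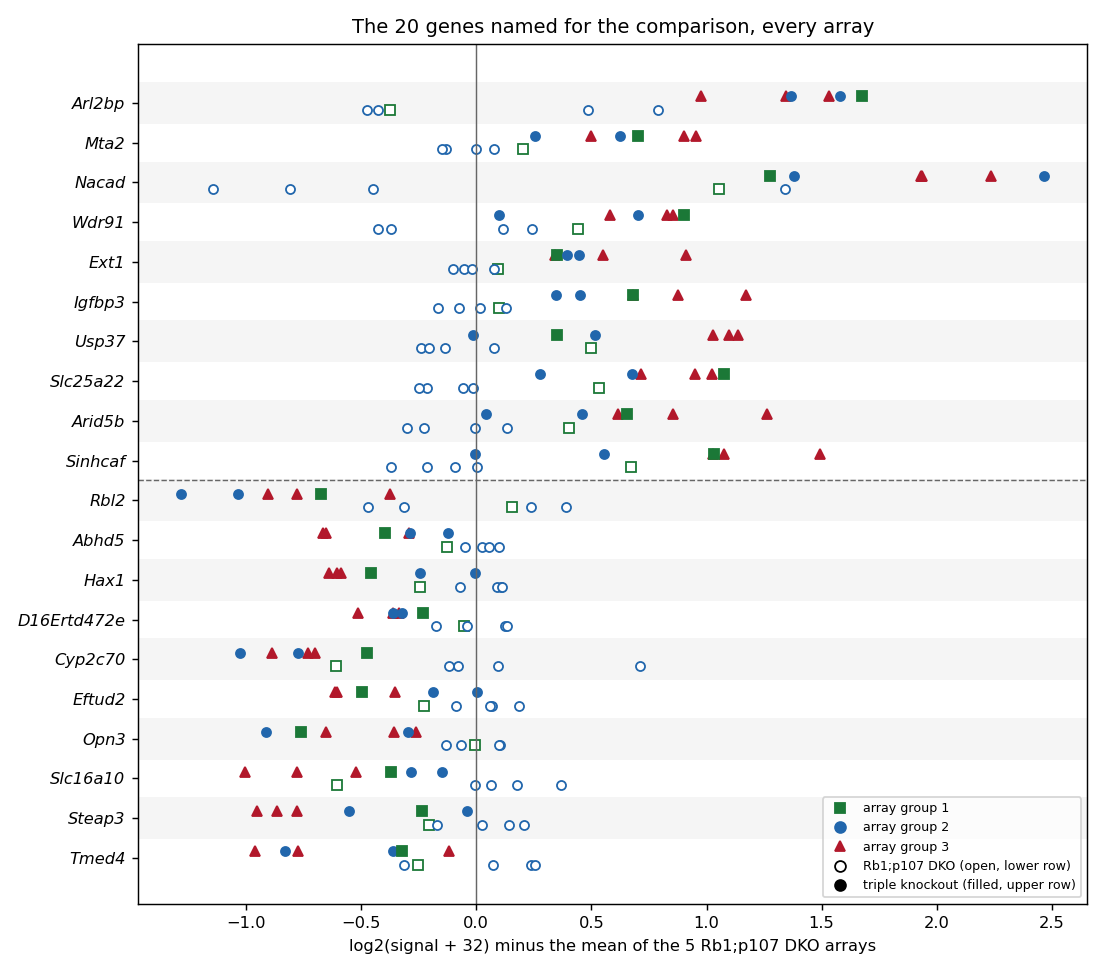
Log2(signal + 32) of the 20 genes named by rule on every array, relative to the mean of the 5 Rb1;p107 DKO arrays (horizontal axis, log2 units), with open symbols for the Rb1;p107 DKO, filled ones for the triple knockout and colours for array group. Arl2bp, Mta2, Ext1, Igfbp3, D16Ertd472e and Opn3 show no overlap, and in Usp37, Hax1 and Steap3 the red triangles of array group 3 lie farthest from 0.

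The genes that p130 is known to repress were measured as lists grouped by function. The members of these and of the later lists were chosen with earlier results of these data known. Their counts and medians therefore describe the lists and are no independent test. Of 21 tested genes of the pocket protein, E2F and DREAM list, 0 were called, and the median difference was 0.00 against 0.03 over all genes. At an unadjusted p under 0.05 in limma 1 was higher and 2 lower, Rbl2 among the latter, beside 5.51% and 2% of all genes. Lin9, a subunit of the MuvB core, gave 460, 321, 225, 382 and 369 in the Rb1;p107 DKO and 373 to 608 with a median of 502 in the triple knockout. The groups overlapped, and the difference was 0.46 ± 0.17 log2, or 0.32 with the block. Rbbp4, the histone-binding subunit of the same core, was at -0.41 ± 0.16 and at -0.10 with the block. E2f4, the usual E2F partner of p130, gave 1626 ± 404 (SD, n = 5) and 1695 ± 613 (n = 6), and E2f1 gave 1696 ± 210 and 1572 ± 182, at log2 differences of 0.03 and -0.11. Values of these 2, like those of Mybl2 at -0.10, were picked by role and not by the rule.

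No S-phase gene passed the test without p130. Of 42 tested, 0 were called, 0 were higher at an unadjusted p under 0.05 in limma and 6 were lower, where 5.51% and 2% of all genes were. With the block 0 were higher and 1 was lower at that p. Of the 42 differences 14 were above 0 and 28 below, against 7228 and 5491 over all genes. The list's median was -0.06 with and without the block. A rise of 1.5-fold lay outside the 95% interval for 41 of the 42 genes, Hells being the exception, against 9192 of 12719 genes (72.3%). The list is bright, with means of 12.08 to 12.31 log2 on the Rb1;p107 DKO arrays, and intervals are narrower for bright genes. The 2 shares are therefore not like for like. The largest upper bound in the list was 0.61 log2. The 6 lower genes were Chaf1b, Rfc2, Pcna, Cdc6, Mcm5 and Orc1, whose differences lay between -0.28 and -0.19 and whose adjusted p-values were 0.657 or more.

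Pcna, the sliding clamp of DNA polymerases, gave 31588, 39007, 38658, 38449 and 41405 in the Rb1;p107 DKO and 29465 to 40441 with a median of 30740 in the triple knockout. The high triple knockout array was array 4 of array group 2 and the low control was array 1, the one Rb1;p107 DKO array of array group 1. Pcna differed by -0.23 ± 0.11 log2, by -0.13 with the block and by -0.10 within array group 2. Chaf1b, a subunit of the chromatin assembly factor, differed by -0.27 ± 0.12 and by -0.21 with the block.

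Orc1, the origin recognition subunit whose E2F match is shown above, gave 1449 ± 51.5 (SD, n = 5) in the Rb1;p107 DKO and 1265 ± 91.0 (n = 6) in the triple knockout. Its difference was -0.19 ± 0.09 log2, and the 95% interval ran from -0.38 to 0.00. Mcm5, a subunit of the replicative helicase with the doubled E2F match, gave 21696 ± 2608 and 18498 ± 2757, at -0.23 ± 0.11 log2 and -0.08 with the block. Both gave values lower and not higher in the liver without p130, and neither was called.

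Cell cycle regulators and mitotic genes held no called gene either. Of 21 tested cyclin, kinase and inhibitor genes 0 were called, and the median was 0.04. At an unadjusted p under 0.05 in limma 1 was higher and 1 lower, beside 5.51% and 2% of all genes. Cdk2, the kinase of the G1/S step, gave 2233, 2380, 1881, 1834 and 1696 against 1918 to 3327 with a median of 2518, a difference of 0.31 ± 0.12 log2 that was 0.19 with the block. Ccnd2, a D-type cyclin, was at -0.36 ± 0.16 and at -0.35 with the block. Cyclin E1 (Ccne1), a textbook E2F target taken by role, gave 2894 ± 257 (SD, n = 5) and 2678 ± 239 (n = 6), at -0.11 ± 0.10.

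Of 39 tested G2/M genes 0 were called, and 1 was higher and 0 lower at that p, beside 5.51% and 2% of all genes. The list's median was -0.07, or 0.05 with the block. A rise of 1.5-fold was outside the interval for 36 of the 39, against 72.3% of all genes, and Cenpe, Cenpf and Ndc80 were the exceptions. This list is bright too, with means of 11.84 to 12.33 log2 on the Rb1;p107 DKO arrays, so these shares are not like for like either. Cenpa, the centromeric histone H3 variant, differed by 0.21 ± 0.10 log2 and by 0.08 with the block. Birc5, or survivin, gave 10210 to 12050 in the Rb1;p107 DKO and 11039 to 15368 in the triple knockout, at 0.20 ± 0.11. Ube2c, the mitotic ubiquitin-conjugating enzyme, gave 28079 ± 2859 (SD) and 24815 ± 4054, at -0.19 ± 0.11 (block -0.05), and Kif11, the spindle motor Eg5, 2029 ± 206 and 2394 ± 554, at 0.21 ± 0.14 (block 0.29), so the 2 genes with the CHR matches shown had differences of opposite sign.

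Genes were also grouped by the letters in their promoters. Of the 10281 tested genes with a RefSeq promoter 158 (1.54%) held an E2F match and 1332 (13.0%) a CHR match. Of the 158 E2F genes 0 were called in limma, and 10 were higher and 6 lower at an unadjusted p under 0.05. Their median difference was 0.05. Of the 1332 CHR genes 0 were called, 78 were higher and 16 lower at that p, and the median was 0.03. Of all 10281 genes with a promoter 577 were higher and 203 lower, with a median of 0.03. The sets differ in size, so these counts are not to be compared directly. Of the S-phase list 7 of 35 genes with a promoter held the E2F match, and of the G2/M list 11 of 33 held the CHR match.

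**Figure D5:**
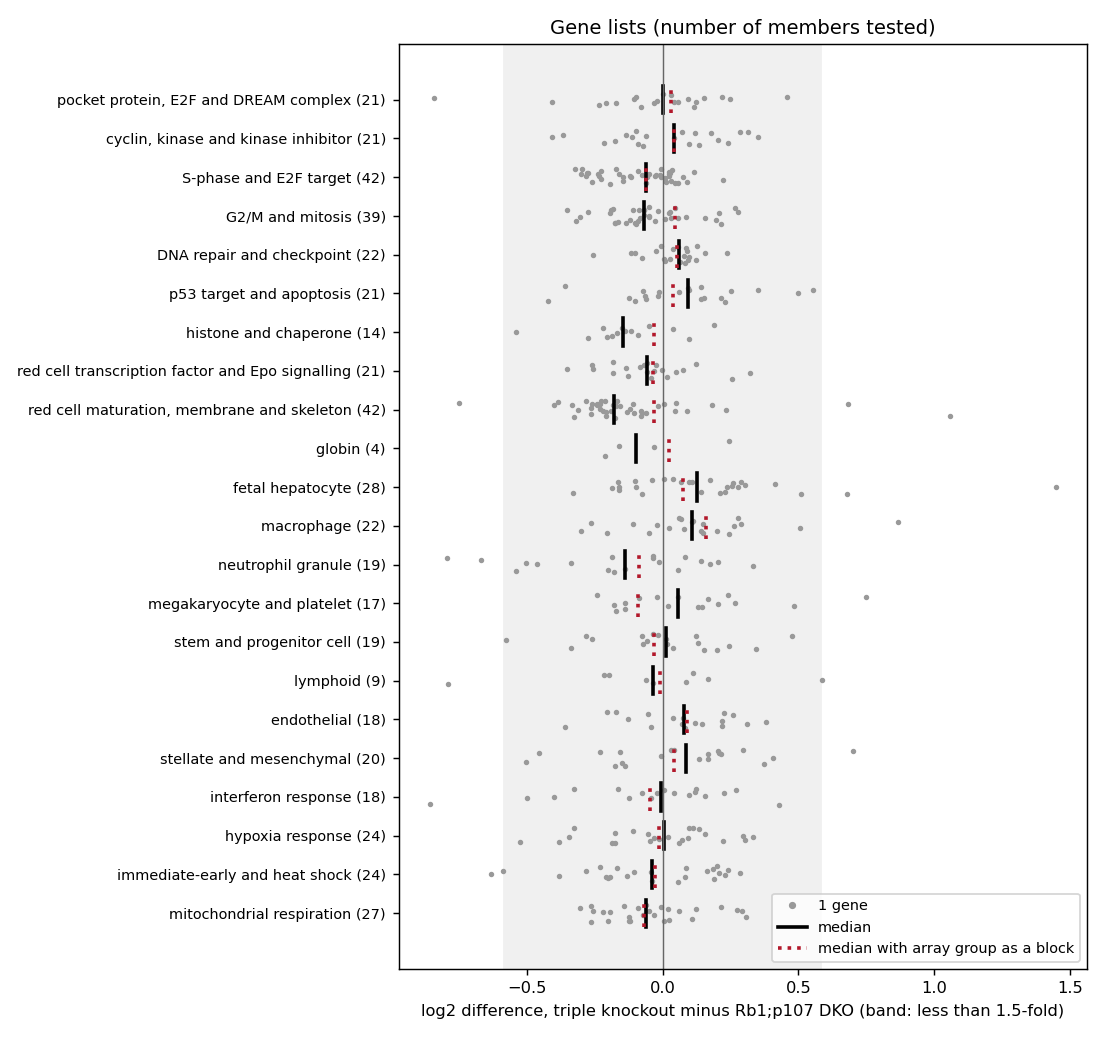
Log2 difference of each tested member (grey points, horizontal axis) of the 22 gene lists (vertical axis, number tested in brackets), with the list's median in black, the median with array group as a block in red dots and a band at less than 1.5-fold. S-phase and G2/M genes crowd within the band around medians of -0.06 and -0.07, and the red cell maturation median moves from -0.18 to -0.03 with the block.

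Genes that respond to damage and those of chromatin assembly held no called gene, and at an unadjusted p under 0.05 they are set beside 5.51% of all genes higher and 2% lower. Of 22 tested DNA repair genes 0 were called and 0 reached an unadjusted p under 0.05 in limma, with a median of 0.06. Of 21 p53 target and apoptosis genes 0 were called and 1, Pmaip1 (Noxa), was higher at that p, at 0.55 ± 0.26 log2 and 0.19 with the block. Its signals were low, 21.7 to 75.5 in the Rb1;p107 DKO and 41.0 to 159 in the triple knockout. Cdkn1a, which encodes p21, gave 610 ± 77.8 (SD, n = 5) and 609 ± 212 (n = 6). Of 14 histone and chaperone genes 2 were lower at that p, Chaf1b and Asf1a, and the median was -0.14, or -0.03 with the block.

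No red cell gene was called, most differences were below 0, and their median was nearer to 0 with array group as a block. Over all genes 7228 differences were above 0 and 5491 below. Of 42 tested maturation, membrane and skeleton genes 8 differences were above 0 and 34 below, with a median of -0.18. The median was -0.03 with the block, -0.05 within array group 2 and 0.16 between the single arrays of array group 1. At an unadjusted p under 0.05 in limma 1 was higher and 2 lower, beside 5.51% and 2% of all genes, with 0 called. Fewer red cells and less RNA per red cell cannot be told apart in whole liver.

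Car2, the carbonic anhydrase of red cells, gave 32782, 45378, 44547, 44343 and 49058 in the Rb1;p107 DKO and 26722 to 47651 with a median of 33404 in the triple knockout. Control array 1 and triple knockout array 4 were each inside the other group's range, and the difference was -0.32 ± 0.15 log2, or -0.10 with the block. Klf1, the transcription factor that drives the adult globin programme, gave 20947 to 32138 and 17631 to 29882, at -0.35 ± 0.15 and -0.19 with the block. Klf1 also lies on chromosome 8, at place -39 from Rbl2 in gene order, and a link with that place was not tested. Gata1 was at -0.25 ± 0.12 and -0.11 with the block. Of the 21 red cell transcription factor and Epo signalling genes Klf1 and Gata1 alone reached an unadjusted p under 0.05 in limma, with 0 called. Over all genes 5.51% were higher and 2% lower at that p.

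Hmox1, the heme-degrading oxygenase, went the other way from its list. It gave 930, 453, 408, 552 and 437 in the Rb1;p107 DKO and 386 to 1855 with a median of 1453 in the triple knockout, where array 4 lay under all controls. The difference was 1.06 ± 0.32 log2 (adjusted p = 0.658) and 0.46 with the block. The 4 globin genes tested had 0 calls and differences from -0.21 to 0.25. Embryonic Hbb-bh1 gave 7217 to 9198 against 8454 to 10906, and Hbb-b2 was at -0.16, or 0.27 with the block, so that its direction is not settled.

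No marker of the other liver cells was called. Of 28 hepatocyte genes 2 were higher and 0 lower at an unadjusted p under 0.05 in limma, beside 5.51% and 2% of all genes. The list's median was 0.13, or 0.08 with the block. Cps1, the first enzyme of the urea cycle, gave 42.2, 30.4, 101, 429 and 48.4 in the Rb1;p107 DKO and 64.5 to 462 with a median of 383 in the triple knockout, so 1 control was as high as the triple knockout arrays and 1 triple knockout array as low as the controls. Its difference was 1.45 ± 0.58 log2 and 0.86 with the block. Foxa3, a liver transcription factor, was at 0.51 ± 0.23 and 0.20 with the block. Apoa1 was at -0.33 ± 0.18 and -0.09 with the block, and the summed signal of the list ran from 217365 to 327977 and from 239522 to 297818.

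Of 22 macrophage genes 1 was higher and 0 lower at that p, beside 5.51% and 2% of all genes. The higher one was Timd4, a receptor for dying cells on resident macrophages, at 0.51 ± 0.23 log2 and 0.29 with the block. The list's median was 0.11, or 0.16 with the block. Marco gave 153 to 614 against 220 to 1150, at 0.87 ± 0.49 and 1.23 with the block. Of 19 neutrophil granule genes 0 reached that p, beside 7.51% of all genes. Above 0 lay 6 differences and below it 13, against 7228 and 5491 over all genes. The list's median was -0.14, or -0.08 with the block. The members with the largest test statistic, Mpo, Ctsg and Elane, were at -0.50, -0.67 and -0.79 with intervals that held 0, and at -0.09, -0.13 and -0.29 with the block. Of 17 megakaryocyte genes Thbs1 alone reached that p (7.51% of all genes did), at 0.48 ± 0.21 and 0.19 with the block. Tubb1, the platelet tubulin, gave 1369 to 1995 in the Rb1;p107 DKO, 3790, 6100 and 5267 on the 3 triple knockout arrays of array group 3 and 1193 to 1781 on the other 3, and its difference of 0.75 ± 0.49 was 0.09 with the block and -0.09 without array group 3.

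Of 19 stem and progenitor genes Mllt3 and Erg were higher at an unadjusted p under 0.05 in limma, at 0.34 ± 0.14 (block 0.17) and 0.47 ± 0.19 log2, and 0 were called. For this and the next lists the shares over all genes at that p were 5.51% higher and 2% lower. Erg gave 81.7 to 166 against 161 to 199, with the highest control inside the triple knockout range, and was at 0.53 with the block. Of 18 endothelial genes Flt1, a VEGF receptor, was at 0.38 ± 0.16 and 0.37 with the block, and the list's median was 0.08. Of 20 stellate and mesenchymal genes Igfbp3 was higher and Lrat, the retinol esterase of stellate cells, lower at that p, the latter at -0.50 and -0.22 with the block. Igfbp3 was the single member of the 22 lists whose groups did not overlap, where 0.259% of all genes had all triple knockout arrays higher and 0.173% all lower. Of 9 lymphoid genes tested Igll1 was lower at that p, with signals of 84.4 to 193 in the Rb1;p107 DKO and 9.7 to 149 in the triple knockout.

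Lists of stress and metabolism are set beside the same shares, 5.51% of all genes higher and 2% lower. Of 24 hypoxia-response genes 2 were lower at an unadjusted p under 0.05, Higd1a (-0.34, block -0.18) and the glucose transporter Slc2a1 (-0.33, block -0.03), and the median was 0.00. Of 18 interferon-response genes Rsad2 and Ifih1 were lower, at -0.86 and -0.50, and the block brought them to -0.19 and -0.26. Of 24 immediate-early and heat shock genes Dnajb1 and Hspd1 were lower, at -0.28 and -0.17, or -0.18 and -0.12 with the block. Of 27 respiration genes Ndufa1 and Cyc1 were lower, both at -0.26 and both at -0.08 with the block. None of these lists held a called gene.

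The S-phase and G2/M lists were also read on the other tested backgrounds of p130 loss, without the array group block. Their medians were 0.09 and 0.08 for Rb1;p130 DKO minus Rb1 KO and 0.00 and -0.07 for p130 KO minus wild type, beside -0.06 and -0.07 with both partners gone. In the first of these 1 G2/M gene and 0 S-phase genes reached an unadjusted p under 0.05 in limma and in the second 0 of either list, and 0 were called. The difference between the effect with p107 absent and with p107 present, both without Rb1, had 4 S-phase genes and 1 G2/M gene lower (1.58% of all genes) and 0 higher (2.08%) at that p, and 0 called. The difference between the effect with Rb1 and p107 absent and with both present had 0 genes of either list at that p in either direction (1.52% of all genes), and 0 called.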

How the data were processed

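Total RNA of fetal liver was hybridised to 34 one-colour Affymetrix arrays. The authors made the deposited values, which are intensity on a linear scale, with MAS5 in GCOS 1.4 per the submitters' processing notes, and no detection calls came with them. The labels give E14.5, and the series design a wider span. Each array was brought to a 2% trimmed mean of 500 (deposited 495.4 to 497.6 on the 11 arrays). RefSeq symbols (GRCm38.p6) were found for 34945 of 45037 probe sets, with 932 matching several genes and 9160 none. A gene's probe set with the highest mean log2(signal + 32) stood for it, and a test required 2 or more arrays with a signal of 100 or more.

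limma 3.58.1 in R 4.3.3 fitted 1 mean per genotype to all 34 arrays (26 residual degrees of freedom, eBayes with a trend, two-sided tests). A call required an adjusted p (Benjamini-Hochberg, within each of 5 comparisons) under 0.05. The number of arrays limits the precision. Array groups came from clustering the difference between the brightest probe sets of 2996 genes, without genotype, with the number of groups set at 3. The fit was tested on simulated data. The rule for named genes took up to 12 called genes a direction, filled to 10 by smallest p among genes with a mean log2 value of at least 8, up to 3 members of each list by test statistic, the targeted genes and called neighbours of Rbl2. Members and lists were chosen with earlier results of these data known. The alternatives were pseudocounts of 1 and 100, other low-signal filters, quantile normalization, probe set means, eBayes settings, array weights, fewer arrays, blocks for replicate number and array group, a sex term and leaving out each array.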

Additional observations from a re-analysis of the deposited data

Results flagged for a closer look

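In 182 tests of a lone extreme array, over 91 genes and both groups, 21 exceeded the 95% critical value, where chance gives about 1 in 20. In 16 of the 21 the array was Rb1;p107 DKO array 1, the group's single array in array group 1. It was the lowest of its group for Pcna at 31588 (the others 38449 to 41405), Mcm5 at 17222 (22126 to 24038), Dnmt1 at 6974 (10747 to 12288), Incenp at 11831 (17121 to 19154), Ube2c at 22990 (29001 to 29777) and Ccnb2 at 8814 (11606 to 12195). Among red cell genes it was lowest for Klf1 at 20947 (29304 to 32138), Gata1 at 6181 (8501 to 9122), Car2 at 32782 (44343 to 49058) and Hbb-y at 36718 (47678 to 52010). It was also lowest for Ctsb at 16196, Cd48 at 231, Slc2a1 at 21011, Cyc1 at 11668 and Cox4i1 at 20027, and highest for Mllt3 at 2047.

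In the triple knockout array 1 was highest for Ext1 at 924 (the others 613 to 713), array 5 highest for Birc5 at 15368 (11039 to 12422) and lowest for Cps1 at 64.5 (265 to 462), array 4 highest for Hbb-y at 53782 (36345 to 40413) and array 6 highest for Cldn5 at 541 (393 to 442).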

How the results depend on the processing

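Arl2bp was the 1 gene called under most alternatives and on leaving out any of the 11 arrays (1 to 1). Its log2 difference ran from 1.29 to 1.54 over 16 alternatives and from 1.29 to 1.61 on leaving out arrays. The count was 0 with only the arrays compared (991 genes at an unadjusted p under 0.05 in limma), 28 with array weights (27 higher, 1 lower; 2399 at that p), and 2, Arl2bp and Rbl2, with quantile normalization, the array group block, that block with a sex term, and that block with array weights. The last 2, and leaving out array group 3, were chosen after seeing the data. Rbl2 had adjusted p-values of 0.0238, 0.0325, 0.00304 and 0.00362 there and 0.0381 with array weights.

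The other p130 comparisons had 0 calls, and 0 to 2 on leaving out arrays with Rb1 absent (Thada and Prkcq without Rb1 KO array 1, Arhgef6 without array 2), 0 to 1 with all present (Mcemp1 without wild-type array 2), and 0 to 2 and 0 to 0 for the differences of effects. Where 1 array then remained in a group it was assumed to vary like the others.

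Differences that changed sign, with the cause not tested, were Tipin at 0.0071 with quantile normalization; Topbp1 at -0.020, Rad18 at 0.086, Higd1a at 0.085 and Rb1 at -0.13 with probe set means; Incenp at 0.048, Rad18 at 0.11 and Hbb-b2 at 0.27 with the array group block; 0.069, 0.15 and 0.33 for the same with a sex term; Incenp at 0.049, Rad18 at 0.038, Bcl2l1 at 0.033, Hbb-b2 at 0.24, Cd79b at 0.035 and Slc2a1 at 0.0058 with weights and block; and Topbp1 at -0.072, Hbb-b2 at 0.12, Tubb1 at -0.090, Cd48 at 0.020, Cd79b at 0.011 and Rb1 at -0.048 without array group 3. None of these genes was called in either setting.

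The labels do not say if same-numbered arrays of the 2 groups belong together. Their deviations from the group means correlated between -0.14 and 0.25, and 2 of 5 correlated best with their own number. Such values cannot tell if arrays were paired. With the replicate block 1 gene was called, Arl2bp at 1.38 (adjusted p = 5.47e-04), and 1578 genes had an unadjusted p under 0.05 in limma. Signals near 30, at the size of the pseudocount, limit what dim genes can show.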
